A study of Rattus norvegicus with 16 samples.

Results

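N6-methyladenosine (m6A) enrichment was compared peak by peak between ovaries of rats labelled VCD and ovaries of rats labelled CON. A peak entered the comparison when its chromosome, start, end and strand were identical in the peak lists of both groups. Such shared peaks numbered 6028, which is 27.0% of the 22316 CON peaks and 28.0% of the 21528 VCD peaks, and they lay in 5308 genes, with 5 peaks assigned to no gene. For each peak the measure was the log2 enrichment of immunoprecipitated (IP) over input RNA in VCD minus that in CON, called the difference below.

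VCD stands for 4-vinylcyclohexene diepoxide, an epoxide chemical that destroys small ovarian follicles in rodents, and CON is the study's comparison group. Each group held 4 rats, and each rat gave 1 IP and 1 input library of poly(A) RNA, 16 libraries in all. The libraries carry a batch label equal to the rat number in both groups, and what it stands for was not given. Rat strain, age, dose, route and duration, and what the CON rats received, remain not given in the sources used here. By its label the organism is rat, whereas the series text speaks of mice.

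The methyl group of m6A is placed on adenosines of mRNA by a METTL3 and METTL14 complex with helper subunits, can be removed by FTO and ALKBH5, and is bound by reader proteins such as the YTH family. In mammalian mRNA the mark is concentrated near stop codons and in long internal exons, and it is known to affect splicing, translation and decay. In the ovary it is known for its role in oocyte growth and meiosis.

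The peak lists give 1 enrichment value per group, made by the authors from the 4 rats together, so no difference in enrichment below has a replicate spread, an error or a test of its own. Expression came as FPKM per input library, summed per library to between 403809 and 421628, and its read depth is unknown. Granulosa and steroidogenic genes that define ovary were expressed in every input library, between 13.2 and 19.6 FPKM for Foxl2, a granulosa transcription factor, between 59.9 and 95.8 FPKM for Nr5a1 and between 2201 and 5563 FPKM for Star. The oocyte gene Zp3 ranged from 0.378 to 8.26 FPKM. In whole ovary, fewer cells of a type and less RNA per cell cannot be told apart. A shift common to all peaks and a difference in pull-down or scaling between the pooled groups cannot be told apart either. As the build remains not given in the sources used here, positions are those of the files.

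Enrichment was close to equal in both groups at nearly all shared peaks. The median log2 enrichment was 2.56 in CON and 2.63 in VCD, and the median difference was 0.07, which is 1.05-fold on the linear scale, with an interquartile range from -0.02 to 0.15. The difference was above 0 at 4290 peaks, 71.2% of all, and below 0 at 1738. It lay within 0.25 of 0 at 5229 peaks (86.7%) and within 0.5 of 0 at 5845 (97.0%), and the central 90% of peaks, from the 5th to the 95th percentile, spanned -0.21 to 0.33. Across the 6028 peaks, CON and VCD enrichment correlated at Pearson r = 0.975 and Spearman rho = 0.977, given as a description because peaks share the same pooled libraries. Matching by identical position keeps a selected part of the peaks, and these values hold for that part alone. Peaks not shared had median enrichments of 2.20 in CON and 2.30 in VCD. Their genes had medians of 6.21 and 6.46 FPKM, against 12.4 FPKM for shared peaks.

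**Figure D1:**
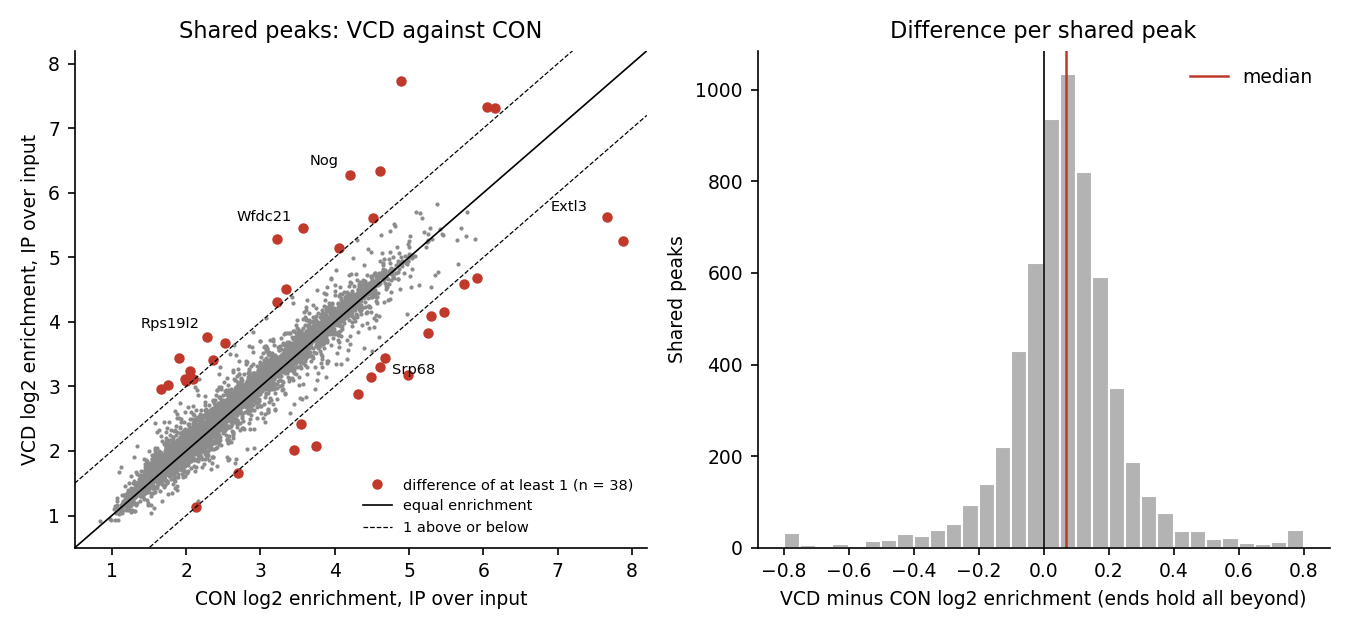
Left, log2 enrichment of IP over input in CON (x axis) and VCD (y axis), each point 1 of 6028 shared peaks, with the 38 peaks that differ by at least 1 in red. Right, the number of peaks by VCD minus CON difference, with the median of 0.07 as a red line; most of the histogram lies to the right of 0.

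A difference of at least 1, a 2-fold change in enrichment, was reached upward by 21 peaks (0.348% of shared peaks) and downward by 17 (0.282%). The peaks nearest this limit were Duoxa2, an oxidase maturation factor, at 1.03 and Terb1, a telomere-bouquet protein of meiosis, at 1.00, which stayed just below it. On the other side stood Wwc2 at -1.002 and Tasp1 at -0.95. Of these 38 peaks, 18 lay in genes with a mean under 1 FPKM, 4 had no FPKM value, and 7 lay in genes with 5 FPKM or more. The median gene expression of the 38 was 0.960 FPKM, against 12.4 FPKM for all shared peaks, and their median length was 376 bases, against 1632. Part of the group were repeated small RNAs: a U6 spliceosomal RNA copy on chromosome 8 went from 7.88 in CON to 5.26 in VCD, and another on chromosome 9 from 3.22 to 5.29. Near-identical copies such as these can share reads, so their values are uncertain. When peaks were instead paired by an overlap of at least 1 base, 414 of 19664 pairs lay at 1 or more and 147 at -1 or less.

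Among genes expressed at 1 FPKM or more in both groups, the largest difference upward was at Stard6, a lipid-transfer protein gene, whose 5′ UTR peak had an enrichment of 1.90 in CON and 3.44 in VCD, a difference of 1.54. Next came Rps19l2, a copy of the ribosomal protein gene Rps19, at chr9:16802318-16807966, with 2.28 in CON, 3.76 in VCD and a difference of 1.48. Its input expression was 856, 621, 454 and 517 FPKM in CON rats 1 to 4 and 476, 471, 116 and 454 FPKM in VCD rats 1 to 4. The groups overlapped, VCD rat 3 stood far below the rest, and the change of -0.85 ± 0.44 (SE) on the log2(FPKM + 1) scale was not called (limma adjusted p = 0.335). The symbol has 2 rows in the FPKM table, of which that of the peak's gene is given, and copies of ribosomal protein genes can share reads. Rab6b, a small GTPase of Golgi traffic, differed by 1.30, Klhdc4 by 1.16, Fam207a by 1.14 and Rabgap1l, a GTPase-activating protein, by 1.10. Hnrnph3, a splicing factor, differed by 0.87 and Nop56, a core protein of box C/D small nucleolar particles, by 0.84. Mean expression of Nop56 was 37.5 FPKM in CON and 30.1 FPKM in VCD. Atp2a3, a calcium pump of the endoplasmic reticulum, differed by 0.80 and Eif4e2, a cap-binding protein, by 0.79. Shared peaks of Eif4e2 differed from each other by up to 0.71. Gene models without a symbol were not ranked, among them AABR07012635.1 at 1.26, AABR07021804.1 at 1.18 and AABR07068285.2 at -1.35.

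In the other direction the 3′ UTR peak of Extl3, a glycosyltransferase of heparan sulfate synthesis, at chr15:48422491-48422716 had an enrichment of 7.66 in CON and 5.62 in VCD, a difference of -2.04. Its expression lay between 16.4 and 18.5 FPKM in the 4 CON rats and between 16.5 and 17.8 FPKM in the 4 VCD rats, so the groups overlapped. Epb41l1, a membrane-cytoskeleton protein, differed by -1.45 at its start codon. Srp68, a subunit of the signal recognition particle, differed by -1.23 at its start codon. Its expression ran from 36.5 to 40.4 FPKM in CON and from 37.5 to 41.8 FPKM in VCD. Shared peaks of Srp68 differed from each other by up to 1.34, the widest range within a gene, so the value at 1 peak does not stand for the gene. Fry differed by -1.15 and Wwc2, a regulator of Hippo signalling, by -1.002, both in the 3′ UTR. Shared peaks of Wwc2 differed from each other by up to 1.13. Tasp1 differed by -0.95, Sinhcaf by -0.84, Chrne, a subunit of the acetylcholine receptor, by -0.80, Dhx35 by -0.80 and Septin5 by -0.79. Of the 10 largest downward differences among expressed genes, 6 were 3′ UTR peaks, as were 1258 of all 6028 shared peaks. Among the 10 largest upward, the peaks of Rab6b, Fam207a and Eif4e2 lay in the 3′ UTR.

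The level of enrichment at the start did not order the differences in 1 way. When peaks were grouped by CON enrichment, the lowest quintile (0.84 to 1.83) had a median difference of 0.08 and the highest (3.61 to 7.88) one of 0.06, a gap of -0.02. Grouping by VCD enrichment gave 0.04 in the lowest and 0.08 in the highest quintile, a gap of 0.04 in the opposite direction, and grouping by the mean of both gave 0.06 and 0.07, a gap of 0.01. A value used to form the groups also enters the difference.

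The median difference was lower for peaks in 3′ UTRs than for those at stop codons, in exons or at start codons. Their spread was not smaller, with an interquartile range of 0.19 against 0.14 at stop codons, 0.19 in exons and 0.16 at start codons. The 1258 peaks annotated to 3′ UTRs had a median difference of 0.03 and 58.4% above 0, the 2475 stop codon peaks 0.07 and 75.9%, the 1134 exonic peaks 0.09 and 74.8%, and the 807 start codon peaks 0.08 and 75.1%. The 3′ UTR peaks were also shorter, with a median of 326 bases against 2356 at stop codons, and less enriched, with a CON median of 1.99 against 3.04. At a matched length above 200 and up to 500 bases the median was 0.02 for 763 peaks in 3′ UTRs, 0.05 for 382 at stop codons and 0.08 for 173 in exons. Above 500 and up to 2000 bases it was 0.05, 0.07 and 0.07 for the same regions. In the lowest quintile of mean enrichment the median was 0.04 in 3′ UTRs and 0.05 at stop codons, and in the quintile above it 0.01 and 0.07. No replicate spread exists against which to test these gaps.

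Peak length went with the difference as well. Length in the files is counted on the genome with introns included, and the medians were 0.05 for peaks up to 200 bases, 0.04 above that and up to 500, 0.07 up to 2000, 0.08 up to 10000 and 0.09 for longer ones. Lengths ran in steps of 25 bases plus 1 where a peak lies inside 1 exon, and any other length was taken to hold an intron or a transcript end. The 2010 peaks of whole steps had a median of 0.05 with 63.0% above 0, and the 4018 of other lengths 0.08 with 75.3%, a gap of 0.03. Within stop codon peaks alone the gap was 0.02, and within exonic peaks alone 0.0015. In 3′ UTRs the medians were 0.0285 for whole steps and 0.0368 for other lengths, and at start codons 0.0754 and 0.0812. Position and span overlapped, as 928 of 1258 peaks in 3′ UTRs but 604 of 2475 at stop codons had whole steps. The part of each in the difference was not tested.

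**Figure D2:**
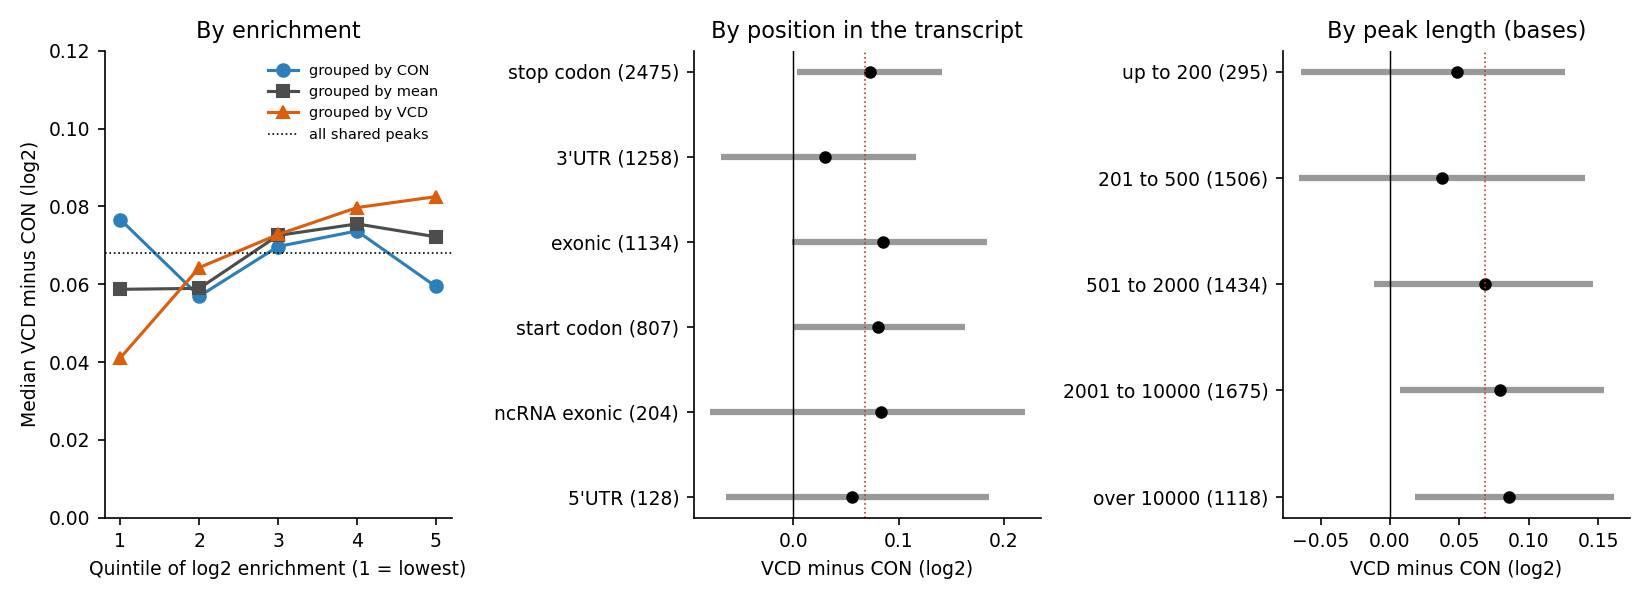
Median VCD minus CON difference in log2 units. Left, by quintile of enrichment formed from CON, from VCD or from their mean: the lines cross, from 0.08 to 0.06 with CON quintiles and from 0.04 to 0.08 with VCD quintiles. Middle and right, by annotated position and by peak length, with grey bars from the lower to the upper quartile, the number of peaks in brackets and a red dotted line at the median of all shared peaks: 3′ UTR peaks, at 0.03, lie lowest by position.

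The spread of the differences was narrower in highly expressed genes, while the median over all regions lay between 0.04 and 0.08. The median difference was 0.06 for 332 peaks in genes under 1 FPKM (mean of the 8 input libraries), 0.08 for 1088 at 1 to 5 FPKM, 0.07 for 2565 at 5 to 20, 0.06 for 1734 at 20 to 100 and 0.04 for 273 at 100 FPKM or more. The interquartile range over peaks narrowed along the same bins from 0.48 to 0.24, 0.16, 0.13 and 0.13. Peaks past 1 in either direction numbered 18 of the 332 under 1 FPKM and 1 of the 273 at 100 FPKM or more, the latter being Rps19l2. At stop codons alone the median was 0.13 for 85 peaks under 1 FPKM, with an interquartile range of 0.47. It was 0.08 at 1 to 5 FPKM and 0.04 at 100 FPKM or more. The input libraries are the denominator of every enrichment, so expression and the difference share data.

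**Figure D3:**
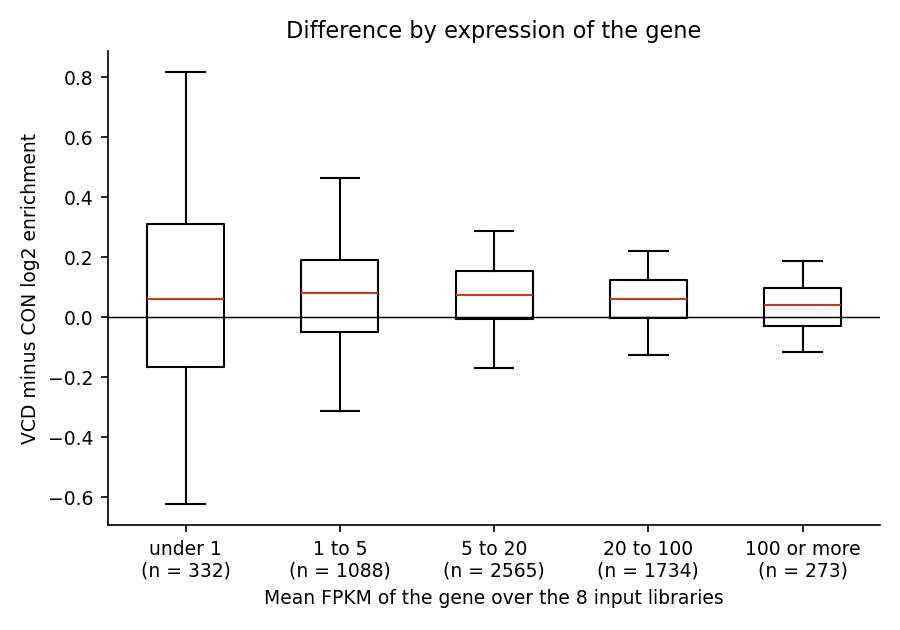
VCD minus CON log2 enrichment by mean FPKM of the gene over the 8 input libraries, with the number of peaks under each bin. Red lines are medians, boxes run between quartiles and whiskers from the 5th to the 95th percentile; the boxes narrow from 0.48 to 0.13 as expression increases.

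Differences at shared peaks of the same gene were close to unrelated. Over all shared peaks 71.2% lay above 0, and the counts of signs within genes stand against that share. A single shared peak was found in 4655 genes, 2 in 595, 3 in 54 and 4 in 4. In the 595 genes with 2, both lay above 0 in 311 genes (52.3%), both below in 46 and 1 on each side in 238, and the paired differences had a Spearman rho of 0.03 across genes, or 0.01 for the 527 genes with 5 FPKM or more. Over all 653 genes with 2 or more, the median range within a gene was 0.12. Ttc4, a co-chaperone, held differences of -0.08 at the start codon, 0.03 at the stop codon, and -0.26 and 0.63 at a pair of peaks in its 3′ UTR that lie on chromosome 5 at 126264604 and 126264104. Kmt2d, a histone H3 lysine methyltransferase, was even by contrast, with 0.10, 0.06, 0.03 and 0.07. Mef2c, a transcription factor, ranged from -0.30 at the start codon to 0.08 in the 3′ UTR, and Gigyf2, a translational repressor, from -0.20 to 0.14. Hsp90b1, a chaperone of the endoplasmic reticulum and the most expressed gene with 3 shared peaks, held 0.06, -0.02 and 0.03.

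Gene lists were compared by counts and medians, read against the median of 0.07 and the 71.2% above 0 for all shared peaks. As a second view of each list, the authors' deposited table of differential peaks names 21.8% of shared peaks as higher in VCD and 3.1% as lower. The share named as higher was 8.43% in genes under 1 FPKM and 39.9% at 100 FPKM or more. It was 8.87% in the lowest quintile of mean enrichment and 27.9% in the highest. List counts were not matched for expression or enrichment. Of 30 lists with at least 3 shared peaks, 26 had a median above 0, and 14 had one above the median of all shared peaks. The lists were chosen with earlier results of these data known, and their members are no replicates.

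Zfp zinc finger genes, most of which encode DNA-binding repressors, formed the list with the most shared peaks, 96 in 90 of the 230 such genes with a CON peak. Their median difference was 0.11, with 79 of 96 above 0, and they were strongly enriched to begin with, at a CON median of 3.61. The authors' deposited table names 35 of them as higher (36.5%) and 2 as lower. By mean enrichment 19 lay in quintile 4 and 50 in quintile 5, where 30.0% and 27.9% of all shared peaks are named as higher. The median was 0.10 for 43 at stop codons, 0.12 for 27 in exons and 0.09 for 18 in 3′ UTRs. Zfp872 had the largest difference upward, 3.38 in CON and 3.83 in VCD, and Zfp609 the largest downward, 2.58 and 1.88. A KEGG pathway labelled Herpes simplex virus 1 infection, of whose shared peaks 37 lay in Zfp genes, had a median of 0.09 over 115 peaks: 0.15 over those 37 and 0.06 over the other 78.

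Genes of the circadian clock had a median of 0.17 over 10 peaks, 8 of them above 0, and the authors' deposited table names 6 as higher and 0 as lower. Nr1d1, the nuclear receptor REV-ERB alpha that represses Arntl, had 2.56 in CON and 2.95 in VCD at chr10:86683874-86684174. The stop codon peak of Per1, a light- and stress-induced repressor of the clock, stood at 3.00 in CON and 3.22 in VCD. Nfil3 differed by 0.22, Per3 by 0.20, Arntl by 0.16, Tef by 0.12 and Dbp by 0.11. Npas2 at -0.20 and Bhlhe40 at -0.09 lay on the other side. Nr1d1 expression was 15.8, 37.8, 22.0 and 37.4 FPKM in CON rats 1 to 4 and 50.3, 68.4, 42.4 and 71.2 FPKM in VCD rats 1 to 4, groups that did not overlap, yet the gene was not called (limma adjusted p = 0.109). The time of day of tissue collection was not given in the sources used here.

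Nuclear receptors and coregulators had 15 of 17 peaks above 0 and a median of 0.10, with 7 named as higher and 0 as lower in the authors' deposited table. Nr3c1, the glucocorticoid receptor, differed by 0.28, Pparg, the adipogenic receptor, by 0.21 and Nrip1, a corepressor needed for ovulation in mice, by 0.18. Nr5a1, which drives steroidogenic genes, differed by 0.10, and Esr1, an estrogen receptor, by -0.05.

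Genes of DNA break and crosslink repair, a class that bears on VCD as a DNA-reactive epoxide, had a median of 0.19 with 10 of 12 peaks above 0, 5 of them named as higher and 0 as lower in the authors' deposited table. The largest differences upward were at Rif1, which shields broken ends from resection, with 0.30, at Fancm, a crosslink helicase, with 0.29, and at Rnf8, a ubiquitin ligase at breaks, also with 0.29. Prkdc and Atm, kinases of the damage response, differed by 0.24 and 0.23. Atr, another such kinase, held 1 peak at -0.29 and 1 at 0.26. H2ax, the histone marked at breaks, was the most enriched, with 5.25 in CON and 5.26 in VCD. These genes were low, with a median of 2.79 FPKM, and at 1 to 5 FPKM the quartiles of all shared peaks were -0.05 and 0.19. The list median was 0.15 with 1 value per gene and 0.13 for genes of 5 FPKM or more. Rif1 expression was 2.37 ± 0.310 FPKM over the 4 CON rats and 1.14 ± 0.357 FPKM over the 4 VCD rats (± SD), without overlap and not called (limma adjusted p = 0.0747).

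DNA replication genes had 7 of 9 peaks above 0 and a median of 0.16, with 2 named as higher in the authors' deposited table. Cdc6 differed by 0.56 and Cdt1 by 0.47, both loaders of the replicative helicase, and Ccne2, a cyclin, by -0.49. Expression of Cdt1 was 3.60 ± 0.796 FPKM over the 4 CON rats and 1.93 ± 0.575 FPKM over the 4 VCD rats (± SD; limma adjusted p = 0.107). In the kinetochore and spindle list only 5 peaks were shared, with a median of 0.07, led by Zw10 at 0.38 and Spc25 at 0.24.

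Granulosa genes were the list with the lowest median, -0.04 over 10 peaks, with 4 above 0, and the authors' deposited table names 2 as higher and 3 as lower. The peak of Amh, a hormone of growing follicles, at chr7:11775154-11775579 had 2.73 in CON and 2.43 in VCD. Foxl2 differed by -0.21, Gja1, the gap junction protein connexin 43, by -0.16 and Npr2, the receptor of C-type natriuretic peptide, by -0.15. Gata4 differed by 0.18 and Nr5a1 by 0.10. Steroidogenic genes of theca and luteal cells had a median of 0.09, with 7 of 10 above 0, from Hsd3b2 at 0.29 and Parm1 at 0.16 to Prlr, the prolactin receptor, at -0.24. Star and Lhcgr, the cholesterol carrier and the luteinizing hormone receptor, both differed by 0.09. Of 19 oocyte genes tested in the input libraries, 12 fell (limma, adjusted p under 0.05), against 0.34% of all genes, with a median log2 change of -1.14, and 1 of 21 granulosa genes fell, Amh. The oocyte count was 6 without CON rat 1, without CON rat 3 or without VCD rat 4, 9 without VCD rat 2, 8 with the replicate block, and 1 of 3 among genes of 5 FPKM or more, while it lay between 10 and 13 without any other single library. Only 1 oocyte gene, Zfp57, had a shared peak, with a difference of 0.10. The part of this change in oocyte RNA in the m6A differences was not tested.

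Several further lists lay at or near 0, only some of which bear on toxicant response. The list of p53 targets and growth arrest, which also bears on it, lay near the median of all shared peaks. It had 0.07 over 11 peaks, 8 of them above 0, with 4 named as higher and 1 as lower in the authors' deposited table. The NRF2 antioxidant list had a median of -0.0020 over 8 peaks, from Gclc at -0.13 to Txnrd1 at 0.21, and 0.0248 with 1 value per gene. The epoxide and xenobiotic list had -0.00063 over 6 peaks, with Gstt1 at 0.14, Gstm1 at -0.08 and Ahr, the aryl hydrocarbon receptor, at -0.40. The BCL2 list had 0.0069 over 10 peaks, 9 of which lay between -0.10 and 0.08, and Xiap, an inhibitor of caspases, stood apart with 1.09 in CON, 1.67 in VCD and 0.58. With peaks limited to genes of 5 FPKM or more, the BCL2 median was -0.000896. Notch genes had -0.0023 over 8 peaks (-0.0048 with 1 value per gene and -0.0135 at 5 FPKM), with Hes1 at -0.18 and Rbpj at 0.22. Cholesterol synthesis genes had 0.02 over 10 peaks (0.0138 with 1 value per gene), Hmgcs1 at -0.39 and Npc1 at 0.15 marking the ends.

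The highest list median, 0.21, came from the 3 peaks of adipocyte genes. The larger remaining lists sat near the median of all peaks, among them chromatin regulators at 0.07 over 30 peaks, immediate-early genes at 0.08 over 19, insulin and PI3K genes at 0.08 over 18, Wnt genes at 0.06 over 21 and collagens at 0.05 over 12. The insulin and PI3K median was 0.03 for genes of 5 FPKM or more, and the Wnt median 0.04 with 1 value per gene. Single members departed from them. Chd8, a chromatin remodeller, differed by 0.57 at its start codon and by 0.15 at an exonic peak, and Suz12, a subunit of Polycomb complex 2, by 0.37. Rictor, the defining subunit of mTOR complex 2, differed by 0.33 at an exonic peak and by 0.10 at its stop codon. All 9 peaks of smooth muscle genes lay above 0, with a median of 0.04, or 0.07 with 1 value per gene. Of 134 KEGG pathways with at least 30 shared peaks, all 134 had a median above 0, from 0.0031 in glucagon signalling to 0.09 in motor proteins. Symbol families with at least 12 peaks numbered 44 and ran from 0.0034 for Rbm genes to 0.14 for Snx sorting nexins, of which 11 of 12 lay above 0.

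**Figure D4:**
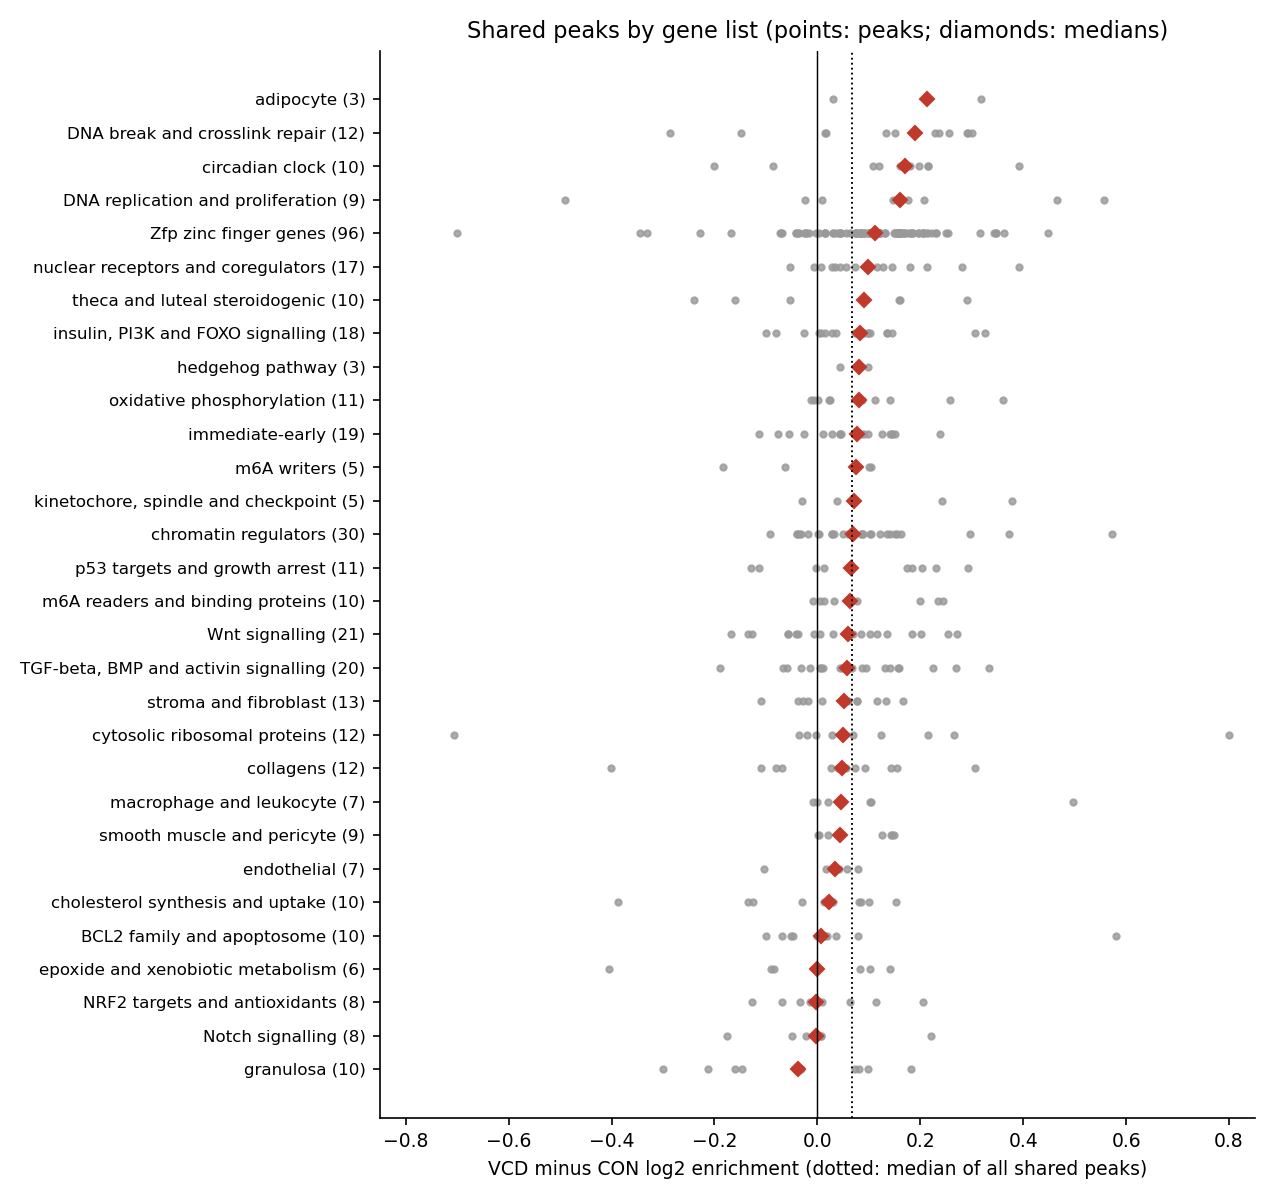
VCD minus CON log2 enrichment of shared peaks for the 30 gene lists with at least 3 such peaks, ordered by median. Grey points are peaks (Rps19l2 at 1.48 is drawn at 0.8), red diamonds medians, and the dotted line the median of all shared peaks, 0.07; granulosa genes lie lowest at -0.04.

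Shared peaks on transcripts of proteins that write and read the mark differed by between -0.18 and 0.24. Among m6A writers, 5 peaks were shared: Virma at 0.11 and Rbm15 at 0.10, Pcif1, which methylates the cap-adjacent adenosine, at 0.08, Rbm15b at -0.06, and Cbll1 at -0.18. None of the 5 is named in the authors' deposited table at these positions. Readers and binding proteins had 10 shared peaks, 9 above 0, with a median of 0.06. Fxr2 differed by 0.24, Elavl1 by 0.23 at the start codon and -0.01 at the stop codon, Hnrnpc by 0.20, Ythdf2, which directs marked mRNA to decay, by 0.06, and the 3 peaks of Ythdc1, the nuclear reader, by 0.08, 0.03 and 0.0050. Prrc2a differed by 0.06 and Eif3a by 0.01. At positions that are not shared, the authors' deposited table marks a stop codon peak of Igf2bp2 with 2.31 in CON and 1.05 in VCD, a difference of -1.27, in a gene with a mean of 0.636 and 0.351 FPKM. The authors' deposited table also gives, without the mark, differences of 0.58 for Fxr1, 0.33 for Mettl14, 0.21 for Virma and -0.23 for Pcif1 at such positions. The median of the 5 writer peaks was 0.08, and 0.0059 for genes of 5 FPKM or more.

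Of the 7 genes that the series text names, none had a peak of identical position in both lists. Mettl3 had 2 peaks in each list, the highest at 2.34 in CON and 2.37 in VCD, and its expression was 32.6 ± 2.55 FPKM over the 4 CON rats and 33.0 ± 1.81 FPKM over the 4 VCD rats (± SD; limma adjusted p = 0.906). Fto had 2 peaks in CON and 3 in VCD, and Alkbh5 2 and 1; limma adjusted p-values for their expression were 0.856 and 0.898. Igf2bp3 had no peak in either list and was listed at 0.215, 0.138, 0.303 and 0.197 FPKM in CON rats 1 to 4, at 0.120 FPKM in VCD rat 1 and at 0 in VCD rats 2 to 4. Cenpa, the centromeric histone, had 2 peaks in CON and 1 in VCD, and Bub1, a spindle checkpoint kinase, 2 in each. Their expression did not overlap between groups, at 1.96 ± 0.506 and 0.875 ± 0.298 FPKM for Cenpa and 3.49 ± 0.696 and 1.28 ± 0.468 FPKM for Bub1 (SD, n = 4 each). Neither was called (limma adjusted p = 0.0966 and 0.0522). The authors' deposited table names a Bub1 peak with a difference of 0.75 and an Alkbh5 peak with 0.18. The authors' deposited table also gives a pair of Polq peaks with 3.17 and 2.93, although the VCD peak list holds none for that gene, whose expression was 0.323 ± 0.0693 FPKM over the 4 CON rats and 0.139 ± 0.0366 FPKM over the 4 VCD rats (± SD).

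Of the 5113 genes with a shared peak that were tested in the input libraries, 12 changed in expression, 4 upward and 8 downward (limma, adjusted p under 0.05), which is 0.235% of them, against 0.447% of all 14978 genes tested, 0.107% upward and 0.34% downward. Differences in m6A at their 12 peaks ran from -0.30 to 0.24 with a median of 0.06. Both measures rest on the same input libraries and are given side by side. Per1 expression was 21.0, 23.7, 22.7 and 25.2 FPKM in CON rats 1 to 4 and 42.2, 38.1, 38.6 and 43.7 FPKM in VCD rats 1 to 4. It rose by 0.79 ± 0.08 (SE) on the log2(FPKM + 1) scale (limma adjusted p = 0.00493), with an m6A difference of 0.21. Amh expression was 74.6, 52.6, 62.5 and 48.3 FPKM in CON and 24.0, 8.02, 7.67 and 14.1 FPKM in VCD. It fell by 2.19 ± 0.32 (SE; limma adjusted p = 0.0297), with an m6A difference of -0.30. The gene model AC119015.2 fell by 1.94 ± 0.15 (SE; limma adjusted p = 0.00478), from 6.65 ± 0.825 FPKM to 1.01 ± 0.380 FPKM (SD, n = 4 each), with an m6A difference of -0.18.

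Arrdc3, an arrestin-like adaptor, went from 16.0 ± 1.48 FPKM over the CON rats to 29.4 ± 4.30 FPKM over the VCD rats (SD, n = 4 each, as for the next genes), with an m6A difference of -0.13. Stmn1, which destabilises microtubules, went from 54.7 ± 4.65 to 36.0 ± 4.17 FPKM with an m6A difference of 0.12. Spc25, a subunit of the NDC80 kinetochore complex, went from 3.66 ± 0.849 to 1.35 ± 0.372 FPKM with 0.24, and Tram2 from 7.14 ± 0.906 to 4.02 ± 0.373 FPKM with 0.24. For H2ax the values were 33.6 ± 2.81 and 23.8 ± 1.11 FPKM with 0.01. Klhl11, Ivns1abp, Dusp14l1 and Clec2d2 also passed, with m6A differences of 0.08, -0.09, 0.04 and 0.13. In all 12 genes the groups did not overlap, but selection by adjusted p with n = 4 each favours such genes, so this adds no support. How many of all genes tested have groups without overlap was not counted. Non-overlap of single genes, here and above, is therefore a description only. Per1 and AC119015.2 stayed called when any 1 library was left out. The other 10 were no longer called without CON rat 1 (adjusted p from 0.0936 to 0.149), without CON rat 2 (0.0577 to 0.126) or without CON rat 3 (0.0849 to 0.153). Leaving out CON rat 4 ended 3 of the 12 calls, VCD rat 1 ended 7, VCD rat 2 and VCD rat 4 ended 9 each and VCD rat 3 ended 1, at adjusted p from 0.0503 to 0.133. Blocking on the rat number, which is also the batch label, ended 9 of the 12 calls (replicate block), at adjusted p from 0.0605 to 0.0904. Testing only genes of 5 FPKM or more on average ended 9 of the 10 calls that remained testable, Amh included at 0.0597, and kept Per1. Testing all genes with no filter on low values ended 6 of the 12.

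**Figure D5:**
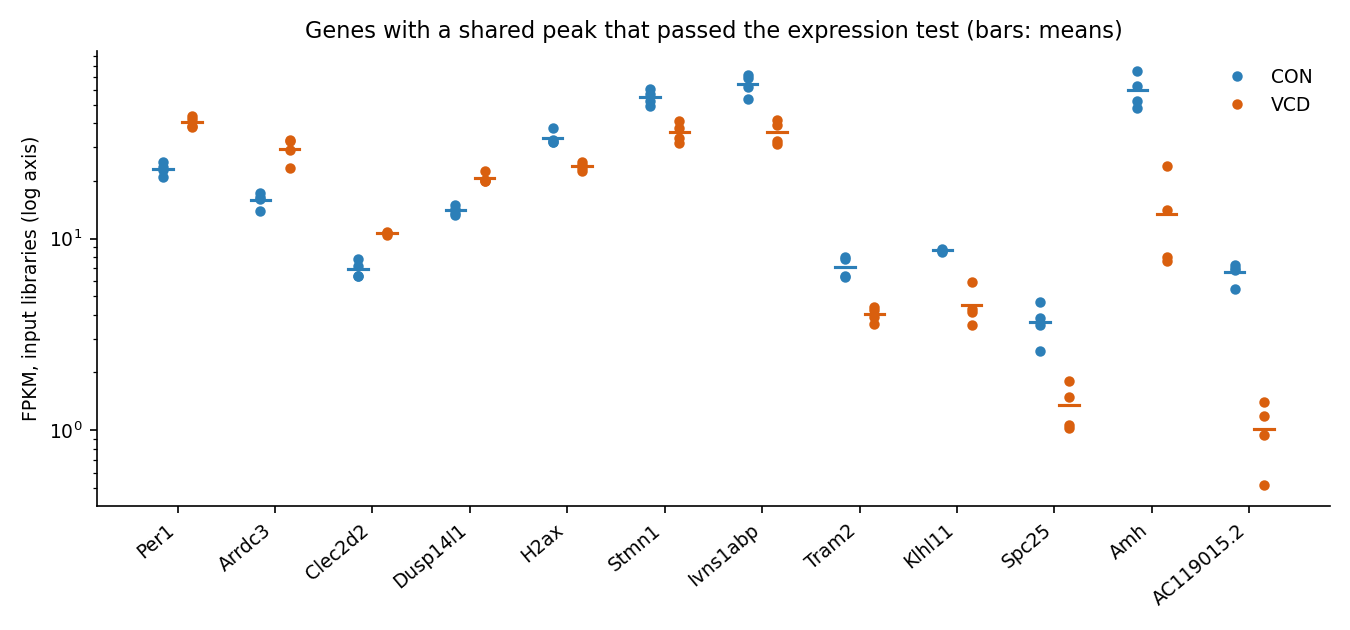
FPKM in each input library on a log axis for the 12 genes with a shared m6A peak that passed the expression test, CON in blue and VCD in orange, with short bars at the means of 4 rats. The groups do not overlap in any of the 12, which were selected by that test. Amh runs from 48.3 to 74.6 FPKM in CON and from 7.67 to 24.0 FPKM in VCD.

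The authors' deposited table of differential peaks offers a second view. It lists 5533 peaks, 4582 higher in VCD and 951 lower, and its highest p-value is 0.0499, with 5 peaks listed without one. By position 1504 of them are shared peaks, a further 1064 are in the CON list alone, 772 in the VCD list alone and 2193 in neither. At the 1504 the table's difference and that of the peak lists lay within 0.01 of each other in 82.1%, with a largest gap of 0.17 and 1 difference in sign, so the table does not add independent values there. Of the 1504, the authors' deposited table gives 1317 as higher (21.8% of shared peaks) and 187 as lower (3.1%). An adjusted p under 0.05 in the table was held by 792, 715 higher and 77 lower.

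Peaks that the authors' deposited table marks as significant are those with a difference of at least 1 in either direction, 431 in all, with 257 higher (4.64%) and 174 lower (3.14%). Shared peaks make up 29 of the 431. Marked peaks lay in genes with a median of 1.28 FPKM, 45.2% of them under 1 FPKM, whereas unmarked listed peaks lay in genes with a median of 13.5 FPKM and 3.18% under 1. Stop codons held 13.9% of marked and 41.9% of unmarked peaks, and exonic peaks were 44.5% and 24.9%. Among the listed peaks that are not shared, 4029 in number, the median difference in the authors' deposited table was 0.21, with 241 at 1 or more and 161 at -1 or less.

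Several of the largest marked differences in the authors' deposited table pair an enrichment near 0 in 1 group with a high one in the other. In the authors' deposited table the 5 largest upward are Pcgf1, a Polycomb subunit, with -0.17 in CON and 5.96 in VCD, Myh9l1 with -0.24 and 5.04, and the gene models LOC103690116, LOC100361913 and LOC100910732 with differences of 5.18, 4.80 and 4.46. Downward the authors' deposited table has LOC108348139 first, with 7.85 in CON and 1.57 in VCD, a difference of -6.29. In the authors' deposited table Exoc2, an exocyst subunit, follows with 5.44 in CON and -0.24 in VCD, Col15a1, a basement membrane collagen, with 4.83 and -0.42, LOC679739 at -4.77 and Sccpdh at -4.65. Among genes with a symbol, the authors' deposited table goes on with Mtf1, the metal-responsive transcription factor, at 4.45, Zfp420 at 3.61 and Zkscan2 at 3.60, and with Abl1, a tyrosine kinase, at -4.58 and Ccdc187 at -4.37. None of these 15 is a shared peak.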

How the data were processed

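MeRIP-seq of ovary poly(A) RNA gave m6A immunoprecipitate and input libraries of 8 rats, 4 per group, per the labels' protocols. The submitters' processing notes name HOMER 4.10, edgeR 4.1, StringTie 2.1.2, HISAT2 2.0.4 and fastp 0.19.4 without their roles, and a build of this organism was not given in the sources used here. In the deposited peak lists stand, per the file headers, 1 log2 enrichment and 1 p-value and adjusted p-value per peak and group, over the pooled libraries, so leaving out a rat was possible for expression alone. The authors' deposited table of differential peaks gives log2 differences and p-values, and its enrichment is a log2 ratio (fold) of IP over input. FPKM per input library came from the deposited expression table; its read depth is unknown, and no interval for counting error can be given.

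Peaks were matched by identical position. Expression was tested with limma 3.58.1 (R 4.3.3) on log2(FPKM + 1) for 14978 genes whose mean reached 0.5 FPKM, with Benjamini-Hochberg adjustment; on simulated data of 14978 genes, 91 of 100 changes by 1 and 99 of 100 by 2 (log2) were recovered, with 10 unchanged genes called. Other steps used Python 3.11.15 and pandas 2.3.3. Exon blocks of peaks were not used here, so span was read from whole steps of 25 bases in peak length. The rule for named genes took, among genes with a symbol and at least 1 FPKM in both groups, 1 peak per gene, the 10 largest differences each way. It also took, for lists with at least 3 shared peaks, the largest difference each way and the 2 most enriched peaks, of which only some are printed. To these came all shared peaks of the series text's 7 genes and of m6A proteins, the 5 genes with the most shared peaks (ties by expression), and the 5 largest marked peaks each way of the authors' deposited table. Other genes and list members, called genes included, were chosen after their values were seen. The members and lists were chosen with earlier results of these data known. Alternatives covered peak matching, p and FPKM limits, centring, 1 value per gene, pseudocount, filter, scaling, replicate block and leaving out each library; restriction to 1 region, length in place of span, the authors' values for named peaks and their adjusted p with the mark were added after seeing the data. No per-sample column was left out (0).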

Additional observations from a re-analysis of the deposited data

Results flagged for a closer look

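In 58 groups of 4 libraries whose FPKM values are given, 4 held a library far from the other 3 by Dixon's criterion, where chance gives about 1 in 20. H2ax stood at 37.7 FPKM in CON rat 1, against 31.8 to 32.8 FPKM in the other CON rats. Dusp14l1 stood at 22.5 FPKM in VCD rat 3, against 19.9 to 20.2 FPKM in the others. Rps19l2 stood at 116 FPKM in VCD rat 3, against 454 to 476 FPKM. Igf2bp3 stood at 0.120 FPKM in VCD rat 1 and was listed at 0 in the other 3 VCD rats.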

How the results depend on the processing

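The median m6A difference was 0.08 when peaks overlapping by at least 1 base (19664 pairs; 0.0806) or by at least 50% of both (16996 pairs; 0.0757) were paired. The count higher by at least 1 was then 414 and 149, and lower 147 and 94, against 21 and 17; it was 9 and 6 for genes with at least 1 FPKM in both groups, and 4 and 3 at 5 FPKM. The gap between the highest and lowest quintile of CON enrichment was -0.0518 and -0.0320 under the overlap pairings and turned to 0.0135 by mean and 0.0414 by VCD enrichment. The gap by exon span was 0.0199 with any overlap, 0.0212 at stop codons alone and 0.0015 in exonic peaks alone. Centring left 14 of 30 list medians above 0 and turned the sign of 12. With 1 value per gene the NRF2 median turned to 0.0248, and at 5 FPKM the BCL2 median to -0.000896. An adjusted p under 0.05 was held by 2757 peaks of the authors' deposited table, and 222 also reached 1, against 431 marked. Causes were not tested, and fewer genes enter under FPKM limits. Calls of expression numbered 67, and 3 at 5 FPKM or more, 31 with the replicate block, and 12 to 133 with 1 library left out. Same-numbered deviations correlated from -0.09 to 0.01, and those of other numbers from -0.22 to 0.27. Whether the numbers or the batch labels pair the rats cannot be settled from these values. The summed block length of peaks was not run. Pooled enrichment allows no replicate error, and low-expressed genes had the widest spread.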
